A study of Homo sapiens with 21 samples.

Results

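The enzymes of glycolysis were examined through 10 genes: HK1, HK2, GPI, PFKL, ALDOA, GAPDH, PGK1, ENO1, PKM and LDHA. They were chosen by name, and all 10 symbols matched Ensembl gene IDs (version removed) among the 37637 features of the count table. Poly(A)-selected RNA was counted in 21 libraries of HepG2, an established line of human liver cancer cells. The cells were held for 6 h in serum-free DMEM with caffeine, diluted from a stock in DMEM, at 0, 0.01, 0.1, 1, 10, 100 or 1000 µM, with 3 libraries at each of the 7 doses. Serum was absent from every group, the 0 µM controls included. Those controls are labelled untreated and caffeine 0 µM, while the design text of the series names coumarin for them, and the sample labels were followed here. The labels call the 3 libraries of a dose replicates of one cell line, so p-values measure the spread between such cultures and not between donors or lines.

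Glycolysis splits glucose into pyruvate in the cytosol. Hexokinases trap glucose as glucose 6-phosphate, GPI turns it into fructose 6-phosphate, phosphofructokinase commits it to breakdown, and aldolase cleaves the sugar. GAPDH, PGK1, enolase and pyruvate kinase then recover ATP, and LDHA reduces pyruvate to lactate. Adult hepatocytes use the liver pyruvate kinase (PKLR), while hepatoma cells largely use HK2, ALDOA and PKM. Many of these genes are known targets of HIF-1, a transcription factor that is stabilised in low oxygen and binds the core letters ACGTG, and of MYC.

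The promoter windows of 6 genes are shown as a description. GPI and ALDOA had lower RNA at the top dose. PGK1 and LDHA hold the most matches to the HIF-1 core among the enzymes. SLC2A1 and PFKFB3, which carry glucose into the cell and activate phosphofructokinase, had higher RNA. A relation between these letters and the RNA levels was not tested. Each sequence is the RefSeq window (GRCh38.p14) from 250 bases before to 50 bases after the annotated start. It runs 5′ to 3′ on the gene's strand, with ACGTG and its reverse complement CACGT in capitals. The GPI window lies at chr19:34364742-34365041 on the plus strand, ALDOA at chr16:30065510-30065809 on the plus strand and PGK1 at chrX:78103998-78104297 on the plus strand. LDHA lies at chr11:18394313-18394612 on the plus strand, SLC2A1 at chr1:42958819-42959118 on the minus strand and PFKFB3 at chr10:6202682-6202981 on the plus strand.
GPI: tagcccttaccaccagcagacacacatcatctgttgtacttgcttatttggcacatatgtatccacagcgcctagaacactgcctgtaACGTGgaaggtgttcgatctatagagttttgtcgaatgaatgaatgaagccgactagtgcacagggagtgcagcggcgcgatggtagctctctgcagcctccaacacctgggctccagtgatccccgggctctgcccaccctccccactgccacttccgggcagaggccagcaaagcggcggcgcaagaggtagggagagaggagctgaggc
ALDOA: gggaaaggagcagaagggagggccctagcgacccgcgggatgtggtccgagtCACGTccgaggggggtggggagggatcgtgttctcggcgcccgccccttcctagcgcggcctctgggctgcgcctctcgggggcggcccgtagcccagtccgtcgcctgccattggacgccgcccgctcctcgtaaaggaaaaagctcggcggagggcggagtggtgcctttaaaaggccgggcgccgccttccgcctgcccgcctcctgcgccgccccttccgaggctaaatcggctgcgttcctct
PGK1: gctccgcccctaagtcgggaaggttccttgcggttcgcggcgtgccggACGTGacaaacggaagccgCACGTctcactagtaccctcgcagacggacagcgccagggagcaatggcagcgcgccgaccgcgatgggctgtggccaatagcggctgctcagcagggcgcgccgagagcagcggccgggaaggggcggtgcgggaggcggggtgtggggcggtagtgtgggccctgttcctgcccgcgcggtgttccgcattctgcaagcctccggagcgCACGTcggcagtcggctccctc
LDHA: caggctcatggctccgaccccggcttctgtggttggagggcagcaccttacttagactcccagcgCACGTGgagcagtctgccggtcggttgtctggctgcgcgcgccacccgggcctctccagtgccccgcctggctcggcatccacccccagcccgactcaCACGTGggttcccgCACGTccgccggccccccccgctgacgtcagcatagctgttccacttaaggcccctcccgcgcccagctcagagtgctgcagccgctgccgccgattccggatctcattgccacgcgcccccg
SLC2A1: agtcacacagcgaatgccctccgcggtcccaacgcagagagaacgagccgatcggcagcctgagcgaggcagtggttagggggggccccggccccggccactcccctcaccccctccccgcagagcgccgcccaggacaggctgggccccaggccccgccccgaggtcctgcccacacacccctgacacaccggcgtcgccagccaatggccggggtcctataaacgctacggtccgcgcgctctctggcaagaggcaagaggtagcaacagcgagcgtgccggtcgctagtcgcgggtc
PFKFB3: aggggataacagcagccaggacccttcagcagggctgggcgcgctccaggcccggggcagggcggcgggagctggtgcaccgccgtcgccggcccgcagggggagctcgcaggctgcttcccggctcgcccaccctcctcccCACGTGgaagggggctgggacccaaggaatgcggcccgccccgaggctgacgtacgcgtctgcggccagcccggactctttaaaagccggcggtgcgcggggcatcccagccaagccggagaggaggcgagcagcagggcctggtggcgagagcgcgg
Counting both strands, ACGTG occurs once in GPI and in ALDOA, 3 times in PGK1, 5 times in LDHA, 2 times in PFKFB3 and 0 times in SLC2A1. The E-box CACGTG contains the core on each strand, so each E-box counts as 2 matches, and LDHA holds 2 E-boxes and PFKFB3 holds 1. Over the 10 enzymes, 6 windows hold ACGTG (HK2, GPI, ALDOA, GAPDH, PGK1 and LDHA), against 21.4% of 35116 windows in the table. The E-box is in 2 of the 10 windows against 7.26% of all, and the GC box GGGCGG is in 8 of the 10 against 44.95% of all. The starts used for HK1, HK2, GPI, GAPDH, ENO1, PKM, LDHA and SLC2A1 lie more than 100 bases from the first base of the transcript used for lengths here, and several genes have other start sites. A match describes the letters in the window, not binding.

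Total counts ran from 28043623 to 40827833 per library (median 32497612), and each enzyme but HK1 had at least 3193 counts in every library. All 10 hepatocyte markers were present in every library, with a summed level of 24566 to 29851 CPM. Of 10 markers of fibroblasts, endothelium and blood in the table, 9 never reached 10 counts in any library, and the summed level of 53.8 to 108 CPM was almost all CD68, at 1954 to 3659 counts per library, while COL1A2 was at 0 throughout. Some libraries stood apart in composition. The slope of expression on the GC content of transcripts, in log2 units per 10 percentage points, was -0.303 in library 1 at 0.01 µM. It was -0.00388, -0.188 and -0.243 in libraries 1, 2 and 3 at 1000 µM, and 0.0622 to 0.16 in the 3 controls. All 3 libraries at 1000 µM lay below the controls, so this slope and the top dose cannot be told apart in that comparison. The share of mitochondrial transcripts ran from 4.95% to 14.2%, highest in library 3 at 1 µM.

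At 0 µM, the enzymes covered a wide range of levels. Per kilobase of the principal transcript, GAPDH had 2307 ± 90.9 CPM, ENO1 1664 ± 125, ALDOA 934 ± 33.5, LDHA 596 ± 67.1 and PKM 412 ± 5.2 (SD, n = 3). GPI at 83.7 ± 4.31 and PGK1 at 81.1 ± 6.43 CPM per kilobase overlapped, followed by PFKL at 68.7 ± 3.39 and HK2 at 30.2 ± 1.73. Every other neighbouring pair in this order was separated in all 3 control libraries. The order of GPI and PGK1, and that of PFKL and HK2, turned when the length of all exons of a gene was used. HK1 was close to absent, at 0.0566 ± 0.0333 CPM per kilobase. Together the 10 genes took 1.33% ± 0.03 of all counts at 0 µM and 1.18% ± 0.06 at 1000 µM, and between 1.13% and 1.41% in single libraries.

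**Figure D1:**
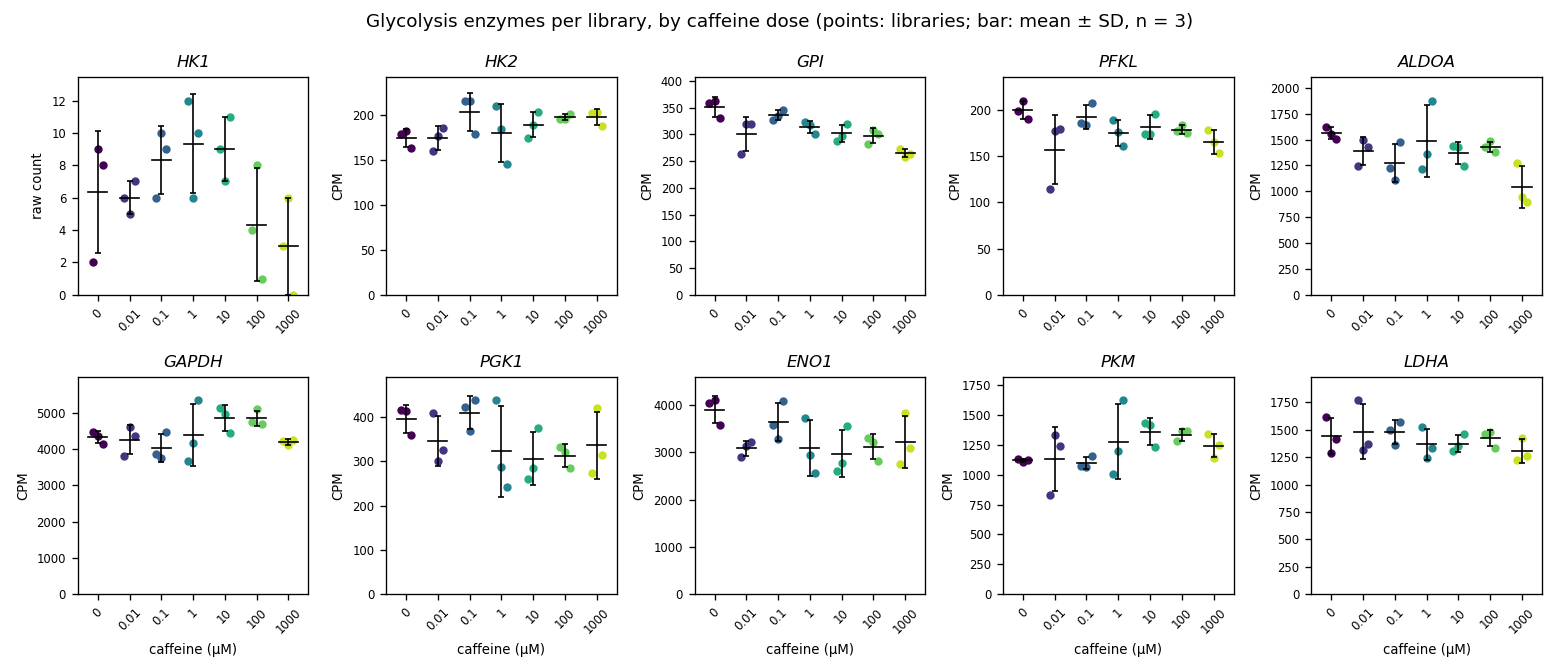
Normalised read count (CPM) of each of the 10 enzymes against caffeine dose (µM), with raw counts for HK1. Points are libraries and bars the mean and SD of 3 libraries. GPI lay at 258 to 273 CPM at 1000 µM and at 330.4 to 363 CPM in the controls. ALDOA lay at 901 to 1277 against 1511 to 1622 CPM. PFKL, HK2 and PKM at 1000 µM did not overlap the controls either, while GAPDH, PGK1, ENO1 and LDHA did.

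Of HK1 and HK2, HK2 carried nearly all reads. HKDC1, a hexokinase-like gene outside the 10 enzymes, was at 38.6 CPM per kilobase at 0 µM, against 30.2 for HK2. HK1 had 2, 9 and 8 counts in the controls and 3, 6 and 0 counts at 1000 µM, and 0 to 12 counts over the 21 libraries. The count of 0 allows up to 3 counts, or 0.0923 CPM when that library is scaled by its total counts alone. Intervals and floors of this kind cover counting error only. HK1 did not pass the filter on low counts, so 9 of the 10 enzymes were tested. HK2, the inducible hexokinase of tumour cells, was at 179, 182 and 163 CPM in the controls and at 202, 202 and 187 CPM at 1000 µM. All 3 libraries at 1000 µM lay above all 3 controls, but within the 146 to 216 CPM spanned by the doses from 0.01 to 1 µM. The difference of 0.18 ± 0.11 on the log2 scale (SE) did not pass edgeR's quasi-likelihood test (adjusted p = 0.217). With the mitochondrial share as a covariate it was 0.24 and passed (adjusted p = 0.0206), and after a correction for GC content and length it was -0.01.

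GPI, the isomerase of the pathway's second step, fell at 1000 µM. It was at 359, 363 and 330.4 CPM in the controls (351 ± 18.1, SD, n = 3) and at 273, 258 and 263 CPM at 1000 µM (265 ± 7.26). No library at 1000 µM overlapped the controls, and only library 1 at 0.01 µM, at 263 CPM, came down to the same range. The log2 fold change was -0.41 ± 0.08 (SE) with an adjusted p of 0.000679 in edgeR's quasi-likelihood test. Between these ends, mean GPI was highest for 0.1 µM (336 CPM), followed by 1 µM (314 CPM), while 0.01, 10 and 100 µM had means from 298 to 302 CPM. These means lay between those of the controls and the top dose, and none of them passed the test against 0 µM. With the 7 doses ranked from 0 to 6, GPI was also the one enzyme whose slope per rank passed (-0.05 ± 0.01 log2 units per rank, adjusted p = 0.005 with edgeR), although neither the 18 treated libraries alone nor the 18 libraries below 1000 µM gave such a call. It passed against 0 µM at the top dose without each of the 6 libraries in turn, with log2 fold changes from -0.43 to -0.37.

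PFKL, the liver form of phosphofructokinase, was at 199, 210.3 and 191 CPM in the controls and at 178, 165 and 153 CPM at 1000 µM. The groups did not overlap, yet the log2 fold change of -0.27 ± 0.13 missed the threshold in edgeR's test (adjusted p = 0.0954). It passed with only the 2 groups compared in the fit (adjusted p = 0.0472) and was 0.02 after the GC and length correction. The lowest PFKL level of all, 114 CPM, was in library 1 at 0.01 µM, the library with the lowest GC slope.

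ALDOA, which cleaves fructose 1,6-bisphosphate, fell at 1000 µM, with the most negative uncorrected log2 fold change of the 9 tested enzymes. It was at 1622, 1552 and 1511 CPM in the controls (1561.5 ± 56.1, SD, n = 3) and at 1277, 944 and 901 CPM at 1000 µM (1040 ± 206). Libraries 2 and 3 at 1000 µM had the lowest ALDOA of all 21, while library 1 lay within the range of 1113 to 1878 CPM at 0.01 to 1 µM. The log2 fold change against 0 µM was -0.59 ± 0.15, with an adjusted p of 0.00478 in edgeR's test. Between 0.01 and 100 µM the mean ran from 1274 to 1486 CPM with no ordering by dose. Libraries 2 and 3 were also 2 of the 3 with the lowest GC slope, and ALDOA transcripts are 60.8% GC. Between 1000 and 0 µM the GC slope and the dose cannot be told apart, and a part of GC content in the ALDOA difference was not tested. After a correction for GC content and length, added after seeing the data, the fold change was -0.19 and the adjusted p 0.102, so the call against 0 µM ended, while against the pooled 0.01, 0.1 and 1 µM libraries ALDOA had -0.21 and passed (adjusted p = 0.0392). GPI, at 53.6% GC, had -0.46 after that correction, with an adjusted p of 2.27e-05. The annotated span of ALDOA overlaps AC093512.2 on its strand and AC093512.1 on the other, and that of GPI overlaps AC092073.1 on its strand. Whether their exons overlap was not examined. Strand-specific counting is not given in the sources used here, so where exons overlap, reads from such neighbours cannot be told apart.

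GAPDH, the dehydrogenase that is often used as a reference gene, was at 4473, 4366 and 4139.5 CPM in the controls and at 4230.5, 4109.8 and 4249 CPM at 1000 µM. The groups overlapped, and the log2 fold change was -0.04 ± 0.11 (adjusted p = 0.778, edgeR). Its highest level, 5345 CPM, was in library 3 at 1 µM and its lowest, 3682 CPM, in library 1 of the same dose. Corrected for GC content and length, the GAPDH difference at 1000 µM turned to 0.28 and passed the threshold (adjusted p = 0.0118). Of 38 GAPDH pseudogenes in the table, the most counted reached 432 counts in a library, and all of them together came to 0.189% of the counts of GAPDH itself.

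PGK1, the first enzyme of the pathway to yield ATP, was at 416, 413 and 359.9 CPM in the controls and at 273, 420.4 and 314 CPM at 1000 µM. Library 2 at 1000 µM was above every control while the other 2 were below, and the log2 fold change was -0.24 ± 0.19 (adjusted p = 0.346, edgeR). PGK1 had the widest relative spread of the tested enzymes, with a coefficient of variation of 18.4% over the 21 libraries. After the GC and length correction its value was -0.50 and passed the threshold (adjusted p = 0.0404). The annotated gene overlaps ATP7A on its own strand and PGAM4 on the other.

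ENO1, the most expressed enolase, was at 4043, 4099.9 and 3566 CPM in the controls and at 2748, 3824 and 3093 CPM at 1000 µM. The groups overlapped through library 2 at 1000 µM, and the log2 fold change was -0.28 ± 0.15 (adjusted p = 0.136, edgeR). ENO1 lay below the controls by a similar margin at 0.01, 1, 10 and 100 µM (log2 fold changes of -0.34, -0.34, -0.39 and -0.33), and none of these passed. Against the pooled libraries at 0.01, 0.1 and 1 µM, the 1000 µM value was -0.02 ± 0.12 (adjusted p = 0.933).

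PKM, whose single gene yields the M1 and M2 pyruvate kinases, was at 1129, 1102 and 1123 CPM in the controls and at 1338, 1140.5 and 1247 CPM at 1000 µM. The 3 treated libraries lay just above the controls, with a log2 fold change of 0.15 ± 0.16 (adjusted p = 0.457, edgeR), and counts per gene do not separate the isoforms. After the GC and length correction PKM had 0.33 and passed (adjusted p = 0.0169). LDHA, which makes lactate, was at 1613, 1290.5 and 1419 CPM in the controls and at 1225, 1427 and 1257 CPM at 1000 µM. Its groups overlapped, and the log2 fold change was -0.14 ± 0.11 (adjusted p = 0.328, edgeR). Against the pooled 0.01, 0.1 and 1 µM libraries LDHA had -0.15 ± 0.09 (adjusted p = 0.26), and -0.21 with a call after the GC and length correction (adjusted p = 0.023).

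**Figure D2:**
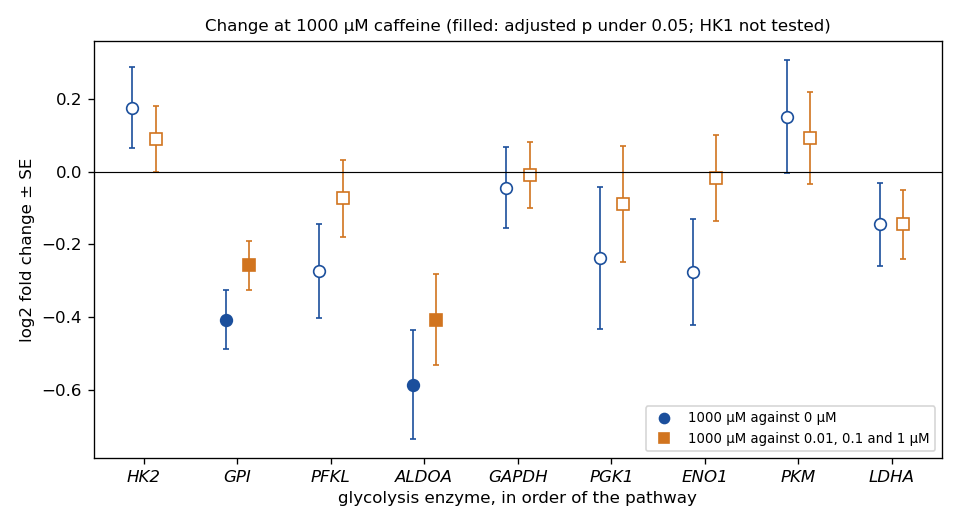
Log2 fold change with its SE (y axis) of the 9 tested enzymes, in pathway order (x axis), at 1000 µM against 0 µM (circles) and against the 9 libraries at 0.01, 0.1 and 1 µM (squares). Filled symbols have an adjusted p under 0.05 in edgeR's test and are found for GPI and ALDOA, at -0.41 and -0.59 against 0 µM.

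Counted together, 2 of the 9 tested enzymes were called at 1000 µM against 0 µM, both lower, while 41.2% of all 17468 tested genes were called and 20.6% were called lower. Groups did not overlap for 5 of the 9, against 53.2% of all genes. The median log2 fold change of the 9 was -0.24, against -0.03 over all tested genes. After the GC and length correction, 4 of the 9 were called. In these bulk libraries, fewer cells with a transcript and less of it per cell cannot be told apart.

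All doses share the same 3 controls, so the lower doses were also used as a reference. Against the pooled 0.01, 0.1 and 1 µM libraries, GPI (-0.26 ± 0.07, adjusted p = 0.00695) and ALDOA (-0.41 ± 0.13, adjusted p = 0.0193) passed edgeR's test at 1000 µM, 2 of 9 where 30.1% of all genes passed. The groups overlapped for all 9 enzymes, while 17.7% of all genes had none. Both also passed without library 1 at 0.01 µM or library 3 at 1 µM. Without library 2 or library 3 at 1000 µM, ALDOA did not pass (adjusted p of 0.109 and 0.151), and without a filter on low counts GPI did not (adjusted p = 0.0697). Between 1000 and 100 µM, ALDOA alone passed (-0.46 ± 0.15, adjusted p = 0.0467), where 14.7% of all genes passed, and groups did not overlap for 3 of the 9 against 36.8% of all genes. That call ended without any single one of 5 of its 6 libraries, all but library 1 at 1000 µM, with adjusted p from 0.0766 to 0.212.

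At the lower doses no enzyme was called by edgeR against 0 µM. The count was 0 of 9 at 0.01 µM, where 4.95% of all genes were called. It was also 0 of 9 at both 0.1 and 1 µM (0% of all genes), at 10 µM (22% of all genes) and for 100 µM (6.02% of all genes). At an unadjusted p under 0.05 there were 3, 0, 1, 2 and 2 enzymes at these doses, and DESeq2 called GPI at 0.01 µM, GPI and ENO1 at 10 µM and GPI at 100 µM. The groups at 100 µM and 0 µM did not overlap for 8 of the 9 enzymes, against 43% of all genes: GPI, PFKL, ALDOA, PGK1 and ENO1 were below the controls and HK2, GAPDH and PKM above them. At 0.01 µM, groups did not overlap for 4 of 9 enzymes (32% of all genes). This held for 1 enzyme at 0.1 µM (22.5% of all genes), 2 enzymes at 1 µM (23.6% of all genes) and 4 enzymes at 10 µM (45.8% of all genes). The differences at 100 µM were between -0.34 and 0.25 on the log2 scale. Pooled, the 0.01 to 1 µM libraries gave 0 of 9 calls against 0 µM (8.8% of all genes), with 2 enzymes at an unadjusted p under 0.05 and none by DESeq2, and the groups overlapped for all 9 enzymes while they did not for 6.42% of all genes. Against those pooled doses, 100 µM also gave 0 of 9 (0.469% of all genes), with 1 enzyme at an unadjusted p under 0.05, none by DESeq2 and none without overlap (2.91% of all genes). Among the 7 groups tested together, GPI alone passed (adjusted p = 0.0152), where 28.1% of all genes passed, and it did not pass there without library 1 at 0 µM or libraries 2 or 3 at 1000 µM. On the slope GPI alone passed, where 29% of all genes did.

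Across the 21 libraries the enzymes did not move as a block. Of 36 pairs of the 9 tested enzymes, 13 had a Pearson correlation of log2 CPM with an adjusted permutation p under 0.05. Of these, 8 were positive and 5 negative. Adjustment was Benjamini-Hochberg over the 36 pairs, and the permutations shuffled all 21 libraries across doses. With shuffling inside each dose only, 7 of the 36 pairs had an adjusted permutation p under 0.05. The closest pair was PGK1 and ENO1, with r = 0.88 (two-sided permutation p = 1e-05, the smallest that 100000 permutations give, adjusted 9e-05) and Spearman's rho = 0.90 (adjusted permutation p = 9e-05). With each dose's mean removed, r was 0.86, and without the 2 libraries farthest from the median of PGK1 it was 0.85. PKM and PGK1, 2 enzymes that each make ATP, moved in opposite directions, with r = -0.82 and rho = -0.83 (adjusted permutation p = 9e-05 for both), -0.79 within doses and -0.80 without the 2 farthest libraries. GAPDH and PKM moved together (r = 0.86, rho = 0.86, adjusted permutation p = 9e-05 for both, 0.87 within doses, 0.80 without the 2 farthest).

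The GC and length correction moved r up for some pairs and down for others, and r was smaller in size after it for 8 of the 13. Outside the 13, PFKL and ALDOA went from r = 0.31 to -0.79, GPI and GAPDH from -0.06 to -0.76, and HK2 and PFKL from 0.35 to 0.82. HK2 and GAPDH stayed at -0.40. The pattern of pairs thus depends on the correction, and r after it was not tested. GPI and PFKL had r = 0.76 and rho = 0.88 (adjusted permutation p = 9e-05 for both), 0.90 within doses and 0.76 without the 2 farthest libraries, but 0.31 after the GC and length correction. ALDOA and GAPDH had r = 0.60 and rho = 0.65 (adjusted permutation p = 0.0177 and 0.00672), 0.84 within doses, 0.73 without the 2 farthest and 0.26 after that correction. PFKL and ENO1 went the other way. Before the correction they had r = 0.55 and rho = 0.74 (adjusted permutation p = 0.0177 and 0.0015), and 0.63 without the 2 farthest libraries. Within doses r was 0.45 and did not pass (adjusted permutation p = 0.0569). After the correction r was 0.81. PGK1 and ENO1 had 0.83 after the correction, PGK1 and PKM -0.84 and GAPDH and PKM 0.85. In a second family of 18 relations with technical measures, ALDOA followed the GC slope of the library (r = 0.82, rho = 0.90, adjusted permutation p = 0.00036 and 0.00018), also within doses (0.80) and without the 2 farthest libraries (0.91). ENO1 was lower where the mitochondrial share was higher (r = -0.78, rho = -0.80, adjusted permutation p = 0.00018 for both, -0.77 within doses, -0.76 without the 2 farthest). PGK1 did the same overall (r = -0.69, rho = -0.78, adjusted permutation p = 0.00168 and 0.00024, -0.83 without the 2 farthest), while its within-dose value of -0.63 did not pass (adjusted permutation p = 0.143). GPI also followed the GC slope (r = 0.69, rho = 0.47, adjusted permutation p = 0.00202 and 0.0479), while its within-dose value of 0.55 did not pass (adjusted permutation p = 0.219). With the mitochondrial share GPI had r = -0.49 (adjusted permutation p = 0.0384). By r, PFKL, GAPDH and PKM passed with the GC slope too, and HK2, PFKL and GAPDH with the mitochondrial share. LDHA passed with neither. The part of GC content and mitochondrial share in the pairs of enzymes was not tested further.

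**Figure D3:**
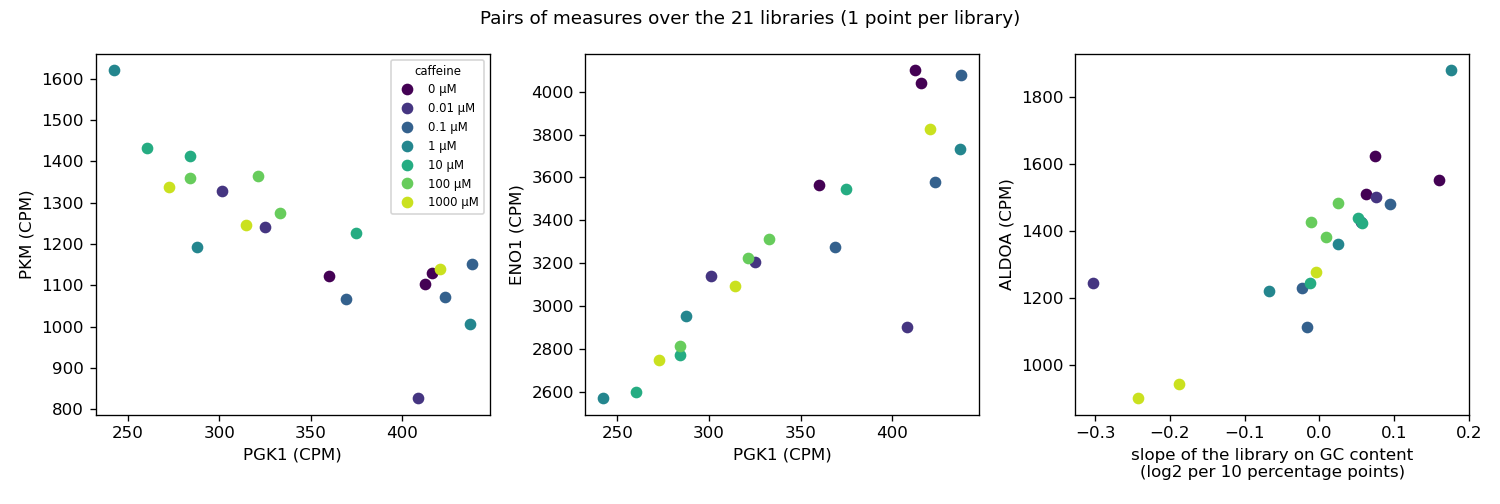
Normalised read counts (CPM) of PKM against PGK1 and of ENO1 against PGK1, and of ALDOA against the slope of each library on GC content (log2 units per 10 percentage points). Each point is 1 of 21 libraries coloured by caffeine dose. PKM falls as PGK1 rises, ENO1 rises with PGK1, and the 2 lowest ALDOA values, 901 and 944 CPM, have slopes of -0.243 and -0.188.

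The genes whose profile over the 21 libraries was most like each enzyme were searched among 12415 genes, by Pearson's r of log2 CPM and as a description with no test. The likeness includes shared library composition. GPI was closest to ANAPC2 (r = 0.95) and FDXR (0.94), PFKL to LONP1 (0.97), ALDOA to HSPB1 (0.98) and QPRT (0.97), and GAPDH to SLC38A5 (0.93). PGK1 was closest to the mitochondrial UQCRC2 (0.98) and to MDH1 (0.97), ENO1 to EIF4A1 (0.98) and BYSL (0.97), PKM to CDK16 (0.97), LDHA to CYCS (0.90) and HK2 to TRAF3 (0.86).

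The other enzymes of the pathway had 19 listed genes, of which 13 were tested. At 1000 µM against 0 µM, 0 were higher and 7 lower with edgeR, against 20.6% of all genes in each direction, and their median log2 fold change was -0.36. PGAM1, the phosphoglycerate mutase, was at 658, 687 and 608 CPM in the controls and at 448, 517 and 461 CPM at 1000 µM, with no overlap (-0.45 ± 0.09, adjusted p = 0.000568, and -0.24 after the GC and length correction, adjusted p = 0.0269). PKLR, the liver pyruvate kinase, was at 33.1, 36.2 and 33.7 CPM in the controls and at 23.5, 20.7 and 20.7 CPM at 1000 µM, lower than in every other library (-0.66 ± 0.12, adjusted p = 0.000419, and -0.44 after that correction, adjusted p = 0.00014). TPI1, the triose phosphate isomerase, had -0.41 ± 0.13 (adjusted p = 0.0156), but lost the call without library 1 at 0 µM or library 3 at 1000 µM (adjusted p of 0.0675 and 0.0935) and had -0.02 after the GC and length correction (adjusted p = 0.882). The muscle phosphofructokinase PFKM had -0.62 ± 0.18 (adjusted p = 0.0119, lost without library 1 or 3 at 1000 µM, with adjusted p of 0.0506 and 0.055).

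The remaining calls among these were ALDOC (-0.36 ± 0.10), ENO3 (-0.29 ± 0.11) and PGAM2 (-1.08 ± 0.38). ALDOC kept its call without each library in turn and lost it after the GC and length correction (adjusted p = 0.245), where ENO3 turned to 0.06 and PGAM2 had -0.46 without a call (adjusted p = 0.342). ENO3 lost its call without any of 5 of the 6 libraries (all but library 1 at 0 µM, adjusted p up to 0.138), and PGAM2 without libraries 1 or 2 at 0 µM or 1 or 3 at 1000 µM (up to 0.19). Against the pooled 0.01, 0.1 and 1 µM libraries, PKLR (-0.64 ± 0.11, adjusted p = 0.000148), PGAM1 (-0.30 ± 0.07, adjusted p = 0.00452) and PFKM (-0.49 ± 0.15, adjusted p = 0.0201) passed edgeR's test as lower. PFKP, the platelet phosphofructokinase, passed as higher (0.29 ± 0.07, adjusted p = 0.00611), and against 0 µM it passed after the GC and length correction (0.40, adjusted p = 0.000602), while 16.2% of all genes passed as higher and 14% as lower. PFKM did not pass there without library 1 or 3 at 1000 µM (adjusted p of 0.0892 and 0.115). HKDC1, a hexokinase-like gene, was at 98.5 to 163 CPM over the 21 libraries and had 0.07 ± 0.12 (adjusted p = 0.671).

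Some paralogs were near absent: LDHB reached 1 count in a library and HK3 reached 2. The ratios HK2/HK1 and LDHA/LDHB were therefore not tested, and 3 ratios with at least 10 counts of both genes in every library were. Such a ratio does not depend on the scaling between libraries, and, since no gene length enters, only its change between libraries is read. PKM over PKLR was 32.6 at 0 µM, 45.9 at 100 µM and 57.3 at 1000 µM (geometric means, n = 3), and its log2 value at 1000 µM, from 5.78 to 5.91, lay above the 4.93 to 5.58 of all other libraries. The difference from the 18 other libraries was 0.67 (exact two-sided permutation p = 0.000752, the smallest that the 1330 splits allow, adjusted 0.00113 over the 3 ratios). PFKL over PFKP was 7.43 at 0 µM and 5.26 at 1000 µM, lower than in all other libraries by a log2 difference of -0.35 (exact permutation p = 0.000752, adjusted 0.00113), with a gap to the nearest library of 2.41 against 2.42. ENO1 over ENO2 was 63.7 at 0 µM and 46.8 at 1000 µM, with a log2 difference of -0.27 from the 18 others and overlapping ranges (exact permutation p = 0.00902, adjusted 0.00902). PKLR overlaps HCN3 on the other strand and ENO2 overlaps LRRC23 on its own. The 18 libraries span 6 doses and are not replicates of one condition.

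**Figure D4:**
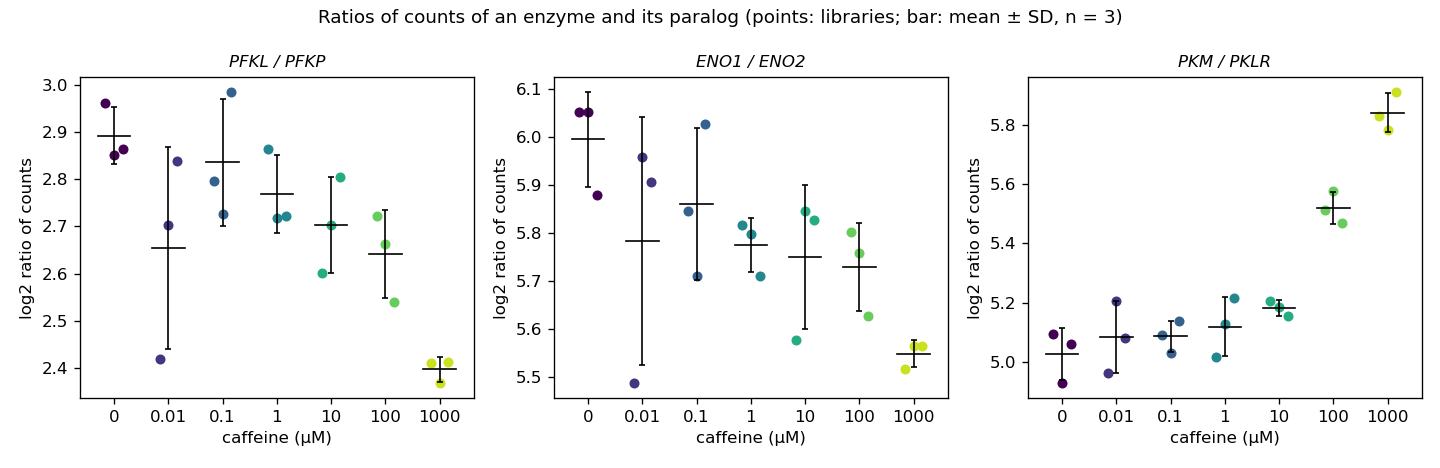
Log2 ratio of the counts of PFKL to PFKP, ENO1 to ENO2 and PKM to PKLR (y axes) against caffeine dose in µM (x axes). Points are libraries and bars the mean and SD of 3. At 1000 µM the PKM to PKLR ratio reached 5.78 to 5.91, above all other libraries, and the PFKL to PFKP ratio 2.37 to 2.41, below them.

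Several genes that bring glucose in and set the flux changed at 1000 µM. Of 5 tested transporters of glucose and lactate (6 listed), 2 were called higher at 1000 µM against 0 µM and 0 lower, where 20.6% of all genes were called in each direction. The lowest log2 fold change among the 5 was -0.41, without a call. Of the same 5, 1 was called lower at 0.01 µM and 1 at 10 µM, where 4.95% and 22% of all genes were called in either direction. SLC2A1, the glucose transporter GLUT1, was at 415, 419.6 and 380.5 CPM in the controls, at 556, 595 and 557 CPM at 100 µM and at 863, 934 and 853 CPM at 1000 µM. Neither treated group overlapped the controls, and the log2 fold change was 1.13 ± 0.10 at 1000 µM (adjusted p = 2.68e-07, edgeR) and 0.49 ± 0.10 at 100 µM (adjusted p = 0.0159). The 100 µM call against 0 µM was lost without libraries 1 or 2 at 0 µM or libraries 2 or 3 at 100 µM (adjusted p up to 0.0886). Against the pooled 0.01, 0.1 and 1 µM libraries SLC2A1 had 0.45 ± 0.08 at 100 µM (adjusted p = 0.00863), lost without library 1 or 2 at 100 µM (adjusted p of 0.0652 and 0.132). SLC2A3, the transporter GLUT3, rose less, from 225 ± 11.1 to 310.1 ± 20.8 CPM (SD, n = 3), with a log2 fold change of 0.46 ± 0.10 (adjusted p = 0.00128).

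Among 13 tested genes that control the flux (14 listed), 2 rose and 6 fell at 1000 µM against 0 µM, where 20.6% of all genes rose and 20.6% fell. PFKFB3, which makes the activator of phosphofructokinase, was at 6.46, 7.11 and 7.62 CPM in the controls, at 10.96, 10.7 and 10.3 CPM at 100 µM and at 17.4, 19.7 and 20.1 CPM at 1000 µM. It stood above every control at both doses, with log2 fold changes of 1.43 ± 0.13 (adjusted p = 3.48e-07, edgeR) and 0.59 ± 0.13 (adjusted p = 0.0214). The second call was lost without libraries 1 or 2 at 0 µM or 2 or 3 at 100 µM (adjusted p up to 0.117). GCKR, a regulatory protein of the liver, was at 15.3, 17.4 and 18.3 CPM in the controls and at 33.9, 33.8 and 33.2 CPM at 1000 µM, a rise of 0.98 ± 0.11 (adjusted p = 2.37e-06). At 100 µM GCKR was still at 17.4 to 19.4 CPM.

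The mitochondrial pyruvate carrier fell in both of its subunits. MPC2 went from 104 ± 5.22 to 56.0 ± 11.5 CPM (SD, n = 3) with a log2 fold change of -0.90 ± 0.14 (adjusted p = 6.84e-05, edgeR). MPC2 was called lower already for the pooled 0.01 to 1 µM libraries against 0 µM (-0.36 ± 0.11, adjusted p = 0.0445), where 8.8% of all genes were called, and at 10 µM (-0.65 ± 0.14, adjusted p = 0.00497). MPC1 went from 72.1 ± 9.07 to 43.8 ± 5.15 CPM with -0.72 ± 0.14 (adjusted p = 0.00062). Against the pooled 0.01 to 1 µM libraries MPC2 had -0.53 ± 0.11 (adjusted p = 0.00164) and MPC1 -0.38 ± 0.12 (adjusted p = 0.0199, lost without library 1 or 3 at 1000 µM, with adjusted p of 0.129 and 0.0837). The other 4 that fell were PFKFB1, PFKFB4, PDK3 and PDHB, of which PFKFB4 and PDHB are named after their values were seen. PFKFB1, the liver form of the PFKFB3 enzyme, had -0.64 ± 0.17 (adjusted p = 0.00708) and kept its call without each of the 6 libraries. PFKFB4, PDK3 and PDHB lost theirs without at least 4 of the 6 libraries (adjusted p up to 0.114, 0.154 and 0.18), and after the GC and length correction PFKFB4 and PDK3 had no call. PFKFB4 was highest at 100 µM, at 32.3, 34.8 and 35.5 CPM against 23.3 to 24.99 CPM at 1000 µM and 27.7 to 30.2 CPM in the controls.

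**Figure D5:**
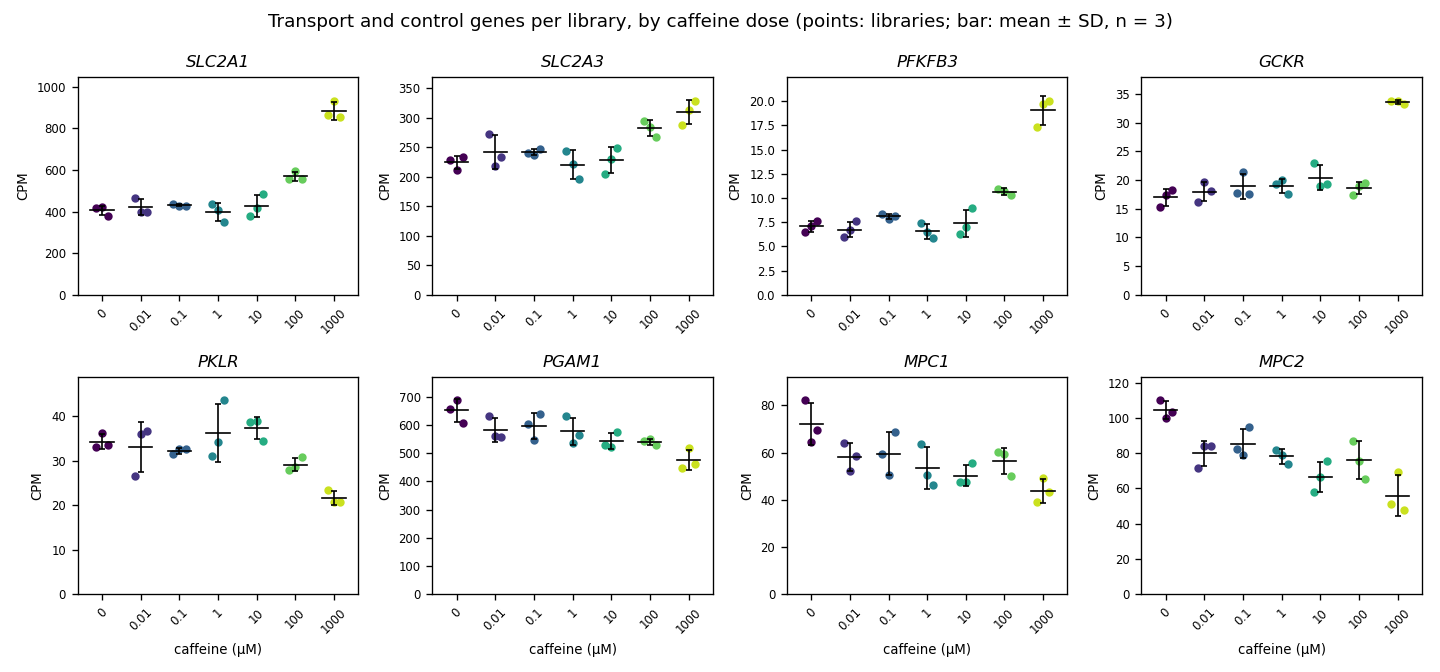
Normalised read count (CPM, y axes) against caffeine dose in µM (x axes) for 2 glucose transporters, PFKFB3, GCKR, PKLR, PGAM1 and the 2 subunits of the pyruvate carrier. Points are libraries and bars the mean and SD of 3. SLC2A1 and PFKFB3 are higher at 100 µM and higher again at 1000 µM, where SLC2A1 reached 853 to 934 CPM, and GCKR is higher at 1000 µM, at 33.2 to 33.9 CPM.

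Of 7 listed transcription factors and feedback genes of glucose metabolism, 3 rose at 1000 µM against 0 µM and 0 fell, against 20.6% of all genes in each direction. HIF1A, the regulated subunit of HIF-1, was at 95.4, 99.6 and 113 CPM in the controls and at 202, 159 and 226 CPM at 1000 µM (0.93 ± 0.16, adjusted p = 0.000186, edgeR). Its mean was 149.5 CPM at 0.01 µM and 173 at 10 µM, and against the pooled 0.01 to 1 µM libraries the difference was 0.52 ± 0.12 (adjusted p = 0.00368), lost without library 3 at 1000 µM (adjusted p = 0.0571) and after the GC and length correction (0.31, adjusted p = 0.11). MYC was at 197, 212 and 225 CPM in the controls and at 389, 286 and 319 CPM at 1000 µM (0.65 ± 0.18, adjusted p = 0.00852, edgeR). It was also at 321 CPM in library 3 at 1 µM and at 275 to 306 CPM at 100 µM. Against the pooled 0.01 to 1 µM libraries MYC had 0.50 (adjusted p = 0.0136), lost without library 1 at 1000 µM (adjusted p = 0.0891). TXNIP, which restrains glucose uptake and is also named after its values were seen, had 0.29 ± 0.09 with overlapping groups (adjusted p = 0.0193) and lost its call without any of 4 libraries (adjusted p up to 0.113).

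GAPDH can be set beside 10 other genes often used as references. At 1000 µM against 0 µM, 1 of them rose (TFRC, 0.84 ± 0.20, adjusted p = 0.00249) and 2 fell with edgeR (ACTB, -0.61 ± 0.08, adjusted p = 3.27e-05, and PPIA, -0.35 ± 0.14, adjusted p = 0.0449), where 41.2% of all genes were called. After the GC and length correction TFRC had 0.53, ACTB -0.36 and PPIA -0.31 (adjusted p = 0.108), so the PPIA call ended. The PPIA call was lost without each of the 6 libraries in turn (adjusted p from 0.0546 to 0.165). ACTB went from 4271, 4132 and 3742 CPM in the controls to 2896, 2525 and 2563 CPM, below every other library.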

How the data were processed

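RNA-seq of 21 HepG2 libraries was analysed from the deposited table of raw read counts per gene. Reads were aligned with HISAT2 to GRCh38 and DESeq2 was used by the authors, per the submitters' processing notes; the counting program, annotation and strand setting are not given in the sources used here. Of 42 columns of samples in the table, 21 match no sample here and were not used. Groups follow the dose in the sample labels. Here, counts were scaled by TMM and fitted in 1 model over the 7 doses with the quasi-likelihood test of edgeR 4.0.16 (limma 3.58.1, R 4.3.3), after filterByExpr with a minimum count of 10 (17468 genes). Adjusted p-values are Benjamini-Hochberg over all tested genes with a threshold of 0.05, and an SE is the log2 fold change divided by the root of F. CPM are the usual depth-scaled counts after TMM, and log2 CPM use a prior count of 2. The design has 14 residual degrees of freedom and a common biological coefficient of variation of 0.162. Total counts of 28043623 to 40827833, taken without the TMM factors, put 3 counts at 0.0735 to 0.107 CPM.

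The enzymes, the other gene lists and the tests were chosen with earlier results of these data known. All 10 enzymes are described; other listed genes are named where they passed at 1000 µM against both 0 µM and the pooled 0.01 to 1 µM libraries, or are paralogs or remaining enzymes of a step. PDHB, PFKFB4, TXNIP and PPIA were named after their values were seen. The pooled 0.01, 0.1 and 1 µM libraries served as a second reference. Alternatives were DESeq2 1.42.0, other scalings, filters and thresholds, a mitochondrial covariate, a replicate block, fewer libraries, and each library left out in turn. A correction by per-library splines on GC content and log length, which covers 89.8% of the tested genes, was chosen after seeing the data. As the GC slope was lower in all libraries at 1000 µM than in the controls, the correction can also take out a difference by dose. The fits were tested on simulated counts. Tables used numpy 2.4.6 and pandas 2.3.3 in Python 3.11. Promoter sequences are from RefSeq. Results for some listed genes are not reported here.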

Additional observations from a re-analysis of the deposited data

How the results depend on the processing

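At 1000 µM against 0 µM, GPI and ALDOA passed with each library left out (2 to 2 enzymes), and the GC and length correction gave 4, with GPI, GAPDH, PGK1 and PKM; under it HK2 had -0.0091, PFKL 0.0155, GAPDH 0.276 and ENO3 0.0564 (0.0341 against the pooled 0.01 to 1 µM libraries), signs opposite to those without it. At 1000 µM against 0 µM, GPI passed in 17 of 17 settings and ALDOA in 16 of 17. DESeq2 gave 1 enzyme at 0.01 µM, 2 at 10 µM and 1 at 100 µM, and 2 among the 7 groups. Fitting only the groups compared gave 2 at 10 µM, 4 at 100 µM and 1 at 1000 µM against the pooled doses. Upper-quartile scaling gave 1 at 10 µM, and library totals without TMM gave 2 among the 7 groups. The GC and length correction gave 3 at 10 µM, 2 at 100 µM (GPI and GAPDH), 3 at 1000 µM against the pooled doses (GPI, ALDOA and LDHA), 1 for the pooled doses against 0 µM, 0 at 1000 against 100 µM, 3 among the 7 groups and 4 on the slope. A threshold of 0.01 gave 1 at 1000 µM against the pooled doses, 0 against 100 µM and 0 among the 7 groups. Without a filter on low counts there were 1 against the pooled doses and 0 among the 7 groups. The mitochondrial covariate gave 3 at 1000 µM against 0 µM (GPI, ALDOA and HK2), 2 among the 7 groups and 3 on the slope. The 18 treated libraries alone gave 0 among the 7 groups and 0 on the slope, and so did the libraries without 1000 µM (0 and 0), both with fewer samples. A linear dose gave 2 on the slope. The cause of the other changes was not tested.

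Leaving out 1 library gave 0 to 2 enzymes at 10 µM (GPI without library 3 at 0 µM, GPI and ENO1 without library 3 at 10 µM), 1 to 2 at 1000 µM against the pooled doses, 0 to 1 against 100 µM, 0 to 3 among the 7 groups (3 without library 3 at 1 µM) and 1 to 3 on the slope (3 without library 2 at 1000 µM). Without library 2 at 1000 µM, HK1 passed the filter and was called in place of ALDOA against the pooled doses. With the replicate number as a block the count at 1000 against 100 µM was 0, and no other count of enzymes changed. Same-numbered libraries of different doses had a median correlation of 0.0199 in their deviations from the dose means, with 11 of 63 pairs over 0.1, and 5 of 21 libraries correlated best with their own number, so the numbers were not taken to pair the samples. The 3 ratios kept their direction and call in every alternative run. HK1, at 0 to 12 counts per library, was called in 1 of the 12 fits against the pooled doses that tested it (adjusted p = 0.0352) and in 0 of 7 against 0 µM, at a depth where single counts move its value. Among the other genes, the calls at 1000 µM against 0 µM of PFKFB1, PFKM, TPI1, PGAM2, ENO3, PDHB, PFKFB4, PDK3 and PPIA ended without a filter on low counts, and those of ENO3, PGAM2, PFKFB4, PDK3 and TXNIP with only the groups compared.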
